A study of Mus musculus with 8 samples.

Results

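The 10 glycolysis enzymes described here are Hk1, Gpi1, Pfkm, Pfkp, Aldoa, Pgk1, Eno1, Eno2, Ldha and Ldhb, and every non-control probe that the array files assign to one of these names was taken, whatever its value. They are 10 of the 27373 gene names on the array and have 22 of its 41174 non-control probes, and 21 of the 22, with at least 1 for each gene, were bright enough to be tested. RNA came from the whole hippocampus of 4 BTBR T+ Itpr3tf/J (BTBR) mice, an inbred strain studied as a model of autism-like behavior, and of 4 wild type C57BL/6J (B6) mice. All were male, 5 months old and without drug treatment, and each mouse had its own single-color Agilent array. The strain background field of the BTBR samples also reads C57BL/6J, while their other labels name BTBR. Each of the 2 slides held 2 arrays of each strain, so a slide effect would fall on both strains alike. The question was whether the transcripts for the enzymes that break down glucose differ between the hippocampi of the 2 strains.

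Glycolysis splits glucose into pyruvate in a chain of enzyme steps in the cytosol and yields ATP and NADH, and lactate dehydrogenase then interconverts pyruvate and lactate. The brain runs on glucose, and several steps have isoenzymes that differ between cell types, such as Eno2 in neurons and Aldoc in astrocytes. Hypoxia-inducible factor, of which Arnt encodes the beta subunit, and the prolyl hydroxylases that mark its alpha subunits for decay regulate many genes of the pathway.

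Where the probes of a gene lie decides which of its transcripts they can report, so the sequences that bear on the readings below are given first. All probes are 60 bases long, coordinates are those of mouse build mm9 in the array files, and probe letters run 5′ to 3′. Both Eno2 probes read nearly the same stretch of the transcript. They share 44 of their 60 bases in runs of at least 8, and the 30 bases around the point where they part are shown, with capitals for the letters that only one of them has.
Eno2 A_51_P130028: attgcttcattcgGTGcactaaccgaagct
Eno2 A_52_P748882: attgcttcattcgTGTTcactaaccgaagc
The file puts the first probe at chr6:124710545-124710604 and 34 bases of the second at chr6:124710048-124710081, both on the minus strand. The pair was therefore read as repeated measurements of one target, not as independent evidence. Pfkp has probes in 3 places that share no run of 8 bases, and their strain differences had both signs. The first is shown whole and spans 2155 bases of the genome, more than its own length, as a probe across an exon junction does. The first 30 bases are shown for the other 2.
Pfkp A_51_P378856: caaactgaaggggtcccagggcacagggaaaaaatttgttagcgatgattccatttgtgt
Pfkp A_52_P223083: cgaaagatccaaggcaaacaaaacatccaa
Pfkp A_52_P572045: cttcatggtctcagaatttccttcagagtt
They lie at chr13:6581718-6583872, chr13:6588296-6588355 and chr13:6579124-6579183 on the minus strand. Ldha also has a probe of the spanning kind, over 930 bases at chr7:54109426-54110355 on the plus strand, shown whole as it reads the joined exons, unlike the second Ldha probe.
Ldha A_51_P364146: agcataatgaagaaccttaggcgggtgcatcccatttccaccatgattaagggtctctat
Both Pgk1 probes, which share a run of 38 bases, are placed by the file at chr3:57906681-57906762, whereas RefSeq (GRCm38.p6) lists Pgk1 on chromosome X and the pseudogene Pgk1-ps3 on chromosome 3. RefSeq lists pseudogenes or other copies named after 5 of the 10 members, 13 copies in all (3 of them of Ldha and 3 of Pgk1), and RNA from a near-identical copy cannot be told from that of the gene. The other 9 members lie on the chromosome that RefSeq gives.

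The levels below are log2 values of background-subtracted spot intensity after quantile normalisation, and differences are BTBR minus B6 with the standard error of the limma fit. BTBR and B6 differed little in these enzymes. The tested differences ran from −0.17 to 0.25, with 11 probes higher and 10 lower in BTBR, and their median was 0.01, as was the median of all 27982 tested probes. The median size of a difference was 0.06 for the 21 probes and 0.10 for all tested probes, and the median standard error was 0.08. In limma with Benjamini-Hochberg adjustment over all tested probes, 0 of the 21 were called at an adjusted p under 0.05, where 7.61% of all tested probes were (3.31% higher and 4.3% lower in BTBR). At an unadjusted p under 0.05, 2 of the 21 passed (18.5% of all), both from Eno2, and the rank product of the study's methods called 0 (3.92% of all). The arrays of the 2 strains did not overlap in 3 of the 21 probes (14.2% of all). BTBR lay higher in both Eno2 probes (6.91% of all) and lower in 1 of Aldoa (7.27% of all).

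These values bound how far the strains could differ as well. With the processing used here, the 95% interval of the difference lay within 0.5 log2 units of zero for 20 of the 21 probes, and the widest bound, that of a Pfkp probe, was 0.53, which is 1.45-fold. For comparison, 5% of all tested probes lay below −0.41 and 5% above 0.38. A p above the threshold does not show equal levels, and with 4 mice per strain the intervals are what the data allow. The limma p-values set each difference against the spread between these 8 mice, moderated over all tested probes. In dissected tissue, fewer cells of a type and less RNA per cell cannot be told apart.

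**Figure D1:**
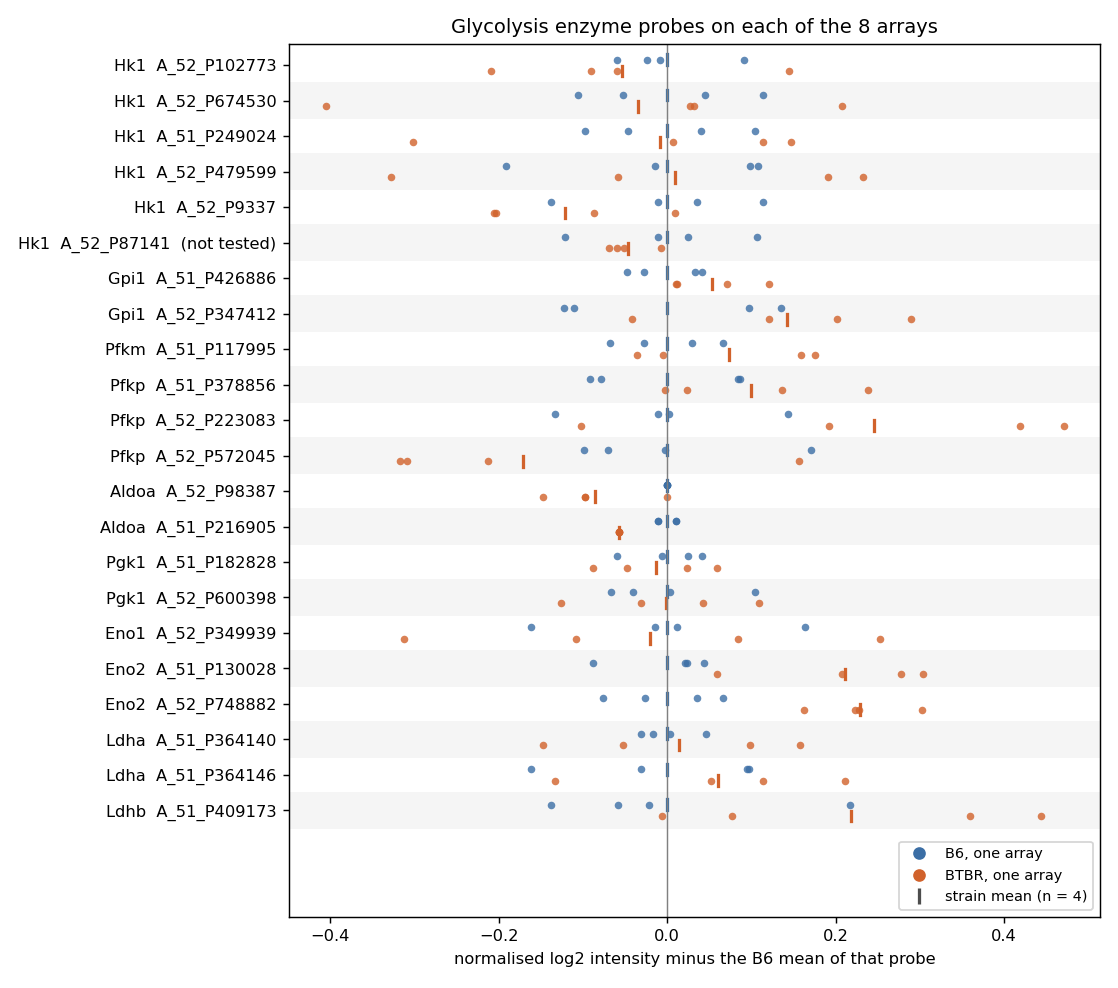
Normalised log2 intensity of each of the 22 probes on each of the 8 arrays, minus the B6 mean of that probe, with points for arrays (B6 blue, BTBR orange) and ticks for the strain means (n = 4). The orange and blue points are mixed in most rows and stand apart in both Eno2 rows and in 1 Aldoa row.

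Hexokinase 1, the first enzyme of the pathway in brain, traps glucose in the cell as glucose 6-phosphate. Its brightest probe (A_52_P102773, chr10:61731916-61731975) read 16.92, 16.88, 16.93 and 17.03 in B6 and 16.85, 16.73, 16.88 and 17.08 in BTBR. The BTBR arrays held both the lowest and the highest value, and the difference was −0.05 ± 0.08 (adjusted p = 0.802, limma). The other 4 tested Hk1 probes differed by −0.03 (A_52_P674530), −0.01 (A_51_P249024), 0.01 (A_52_P479599) and −0.12 (A_52_P9337), with adjusted p of at least 0.485 in limma. In 3 of these 4, as in the brightest probe, BTBR replicate 2 was the lowest of all 8 arrays, which shows in A_52_P674530 as 11.78 against 12.08 to 12.39 on the other arrays. The probe that was not tested, A_52_P87141, was well above background on 2 B6 arrays and 0 BTBR arrays, with means of 7.89 and 7.84.

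Glucose 6-phosphate isomerase (Gpi1) turns the product of hexokinase into fructose 6-phosphate. Its main probe, A_51_P426886 at chr7:34987195-34987254, is spotted 10 times on each array and is therefore the most repeated reading among the members, together with 1 Pgk1 probe. It read 17.72, 17.80, 17.74 and 17.81 in B6 and 17.84, 17.78, 17.78 and 17.89 in BTBR, with a difference of 0.05 ± 0.06 (95% interval −0.08 to 0.18, adjusted p = 0.702, limma). A second Gpi1 probe, A_52_P347412, which 1 B6 array did not read well above background, differed by 0.14 ± 0.10 with an adjusted p of 0.499 in limma, and by 0.33 with the processed signal of the scanner software, with an SE of 0.22 and a wider interval than those described above (Gpi1 A_52_P347412).

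Phosphofructokinase commits the sugar to glycolysis and is its main point of control, and Pfkm and Pfkp encode the muscle and platelet types. Pfkm, at A_51_P117995, read 16.46, 16.49, 16.36 and 16.40 in B6 and 16.60, 16.39, 16.42 and 16.59 in BTBR, a difference of 0.07 ± 0.07 (adjusted p = 0.669, limma). The 3 Pfkp probes gave differences of both signs. The junction-spanning one differed by 0.10 ± 0.08 and A_52_P572045 by −0.17 ± 0.12, neither of them called (adjusted p 0.588 and 0.51, limma). The third, A_52_P223083, read 12.46, 12.48, 12.62 and 12.34 in B6 and 12.95, 12.90, 12.37 and 12.67 in BTBR. Its BTBR arrays spread widely and 1 lay among the B6 arrays, so that the largest difference among the members, 0.25 ± 0.13, had an adjusted p of 0.361 in limma. Within slide 1 it was 0.45 and within slide 2 it was 0.04, and the difference between slides had an adjusted p of 0.52.

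Aldolase A cleaves fructose 1,6-bisphosphate into smaller sugar phosphates. Its 2 probes were among the 5 brightest of all probes on every array, where quantile normalisation gives each array the same few values by rank. A_52_P98387 read 18.86 on all 4 B6 arrays and 18.71, 18.76, 18.76 and 18.86 in BTBR. A_51_P216905, which shares 42 bases with it, read 18.71, 18.71, 18.69 and 18.69 in B6 and 18.64 on all 4 BTBR arrays. The differences were −0.09 ± 0.06 and −0.06 ± 0.05, with adjusted p of 0.491 and 0.63 in limma. The second separated the strains without overlap (exact permutation p = 0.0286, two-sided, the smallest that 4 against 4 arrays can give), but its spread within a strain was set by the ranks. With the processed signal of the scanner software and no quantile step, the 2 differences were −0.00 and 0.00.

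Phosphoglycerate kinase 1 makes the first ATP of the pathway. Its probe with 10 spots per array, A_51_P182828, read 16.47, 16.42, 16.52 and 16.50 in B6 and 16.54, 16.39, 16.50 and 16.43 in BTBR. The strains lay on top of each other, with a difference of −0.01 ± 0.06 (95% interval −0.15 to 0.12, adjusted p = 0.935, limma). The overlapping probe A_52_P600398 gave −0.00 ± 0.07.

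Enolase makes phosphoenolpyruvate, and Eno2 had the smallest limma p among the members. Eno2, the neuronal enolase, was read by A_51_P130028 at 16.39, 16.42, 16.28 and 16.40 in B6 and 16.68, 16.58, 16.43 and 16.65 in BTBR. The second probe, A_52_P748882, read 15.97, 15.94, 15.88 and 15.83 in B6 and 16.21, 16.13, 16.07 and 16.13 in BTBR. In both, the lowest BTBR array lay above the highest B6 array. The difference was 0.21 ± 0.07 (95% interval 0.05 to 0.37) for the first and 0.23 ± 0.06 (0.09 to 0.37) for the second, or 1.16-fold and 1.17-fold. Both had an exact two-sided permutation p of 0.0286, and neither was called by limma after adjustment over all tested probes (adjusted p = 0.138 and 0.0598). The 2 slides gave similar sizes, 0.22 and 0.20 for the first probe and 0.21 and 0.24 for the second. The second probe passed the threshold in the deposited matrix (0.22, adjusted p = 0.0372), with limma's trend and robust options (adjusted p = 0.0345) and with slide as a block (adjusted p = 0.0438), so the call depended on these settings while the direction did not.

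Eno1, the enolase of most tissues, read 13.62, 13.77, 13.79 and 13.94 in B6 and 13.67, 13.47, 14.03 and 13.86 in BTBR at its only probe, A_52_P349939. The BTBR arrays surrounded the B6 arrays, and the difference was −0.02 ± 0.13 (adjusted p = 0.954, limma). Taken within each array, the log2 ratio of Eno1 to the brighter Eno2 probe was lower in BTBR by 0.23 on average (BTBR minus B6 −0.23, 95% interval −0.66 to 0.19). That difference between the isoenzymes did not pass an exact permutation test (two-sided p = 0.257, 0.386 after adjustment over 3 pairs). Without 3 arrays that stand apart in markers of neighboring tissue, described below, the Eno1 against Eno2 value was −0.02 (exact p = 0.9), with Eno1 itself at 0.16. Eno2 is therefore not shown to differ from Eno1 in its response to strain. The mean level of 11 other neuronal markers over 24 probes was 13.84 to 13.93 on the B6 arrays and 13.69 to 13.79 on the BTBR arrays, lower in BTBR without overlap, with 3 of the 11 genes called, all lower. Its 24 probes went both ways, 11 higher and 13 lower in BTBR, with differences from −1.93 to 0.28 and a median of −0.05. Their part in the Eno2 values was not tested.

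Lactate dehydrogenase converts pyruvate to lactate and back, with a muscle-type subunit from Ldha and a heart-type subunit from Ldhb. Ldha read 15.90, 15.91, 15.93 and 15.98 in B6 and 15.88, 15.78, 16.09 and 16.03 in BTBR at A_51_P364140 (chr7:54110889-54110948). The junction-spanning Ldha probe read 15.04 to 15.30 in B6 and 15.07 to 15.42 in BTBR. Differences of 0.01 ± 0.08 and 0.06 ± 0.09 (adjusted p 0.949 and 0.799, limma) were within the spread between mice, and the strains overlapped in both probes.

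Ldhb, at A_51_P409173 (chr6:142438838-142438897), read 17.16, 17.44, 17.20 and 17.08 in B6 and 17.66, 17.58, 17.21 and 17.30 in BTBR. BTBR replicates 1 and 2 stood above the other arrays, and the difference of 0.22 ± 0.12 did not pass (95% interval −0.05 to 0.49, adjusted p = 0.395, limma). The third highest value was that of B6 replicate 2. Within arrays, the log2 ratio of Ldha to Ldhb was lower in BTBR by 0.20 (BTBR minus B6 −0.20, 95% interval −0.68 to 0.27, exact permutation p = 0.257, 0.386 adjusted over 3 pairs), and that of Pfkm to Pfkp differed by −0.03 (−0.28 to 0.23, exact p = 0.857). The Ldha against Ldhb value was −0.40 within slide 1 and −0.01 within slide 2. It was 0.02, near zero, without BTBR replicates 1 and 2 and B6 replicate 2. Those 3 arrays are all on slide 1, so the slide and leave-out values are not separate evidence.

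**Figure D2:**
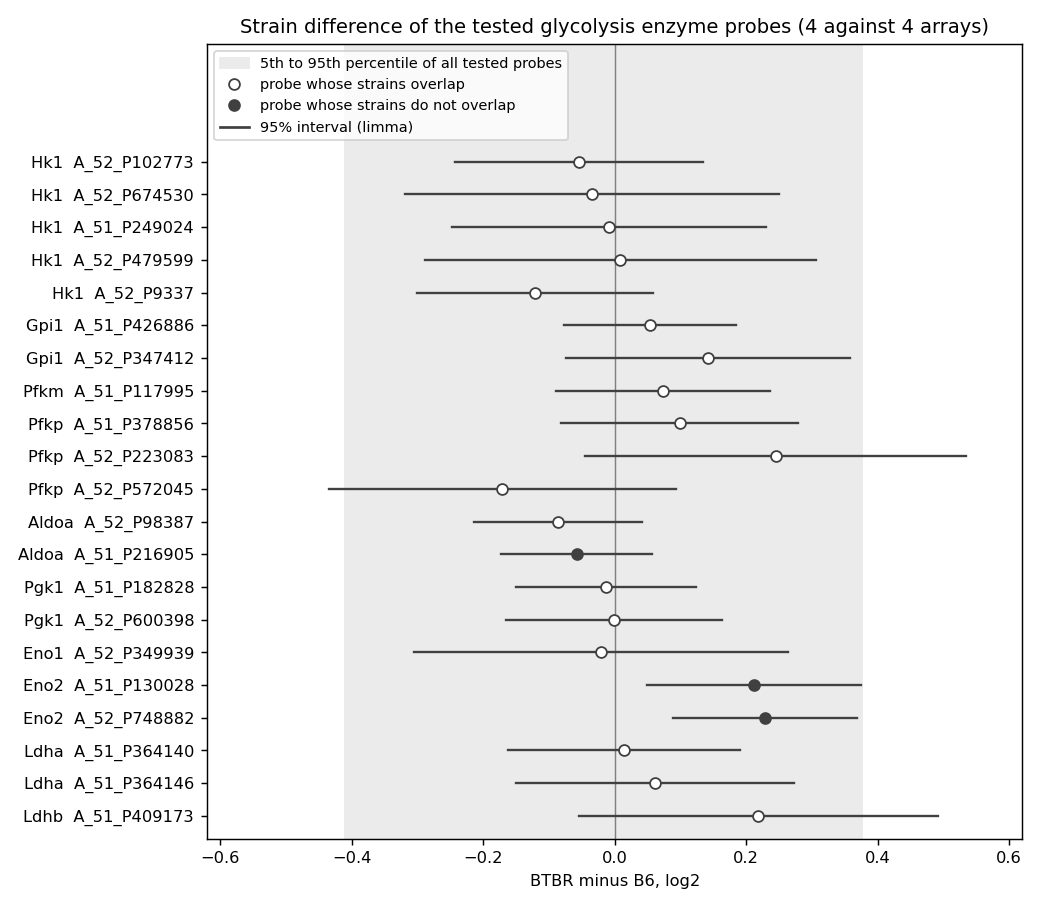
Difference between strains (BTBR minus B6, log2) of the 21 tested probes, with the 95% interval of limma. The shaded band runs from −0.41 to 0.38, the 5th to 95th percentile of all tested probes. Filled points mark the 3 probes whose strains do not overlap, and the 2 Eno2 intervals are the ones that leave out zero.

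The 3 arrays with the most Ldhb also stood apart in markers of tissue around the hippocampus. All 10 hippocampal neuron markers were detected. A list of striatal markers (7 genes tested, Drd2 and Ppp1r1b among those listed) averaged 11.02 on BTBR replicate 1, 13.15 on BTBR replicate 2 and 11.56 on B6 replicate 2, and 9.42 to 9.76 on the other 5 arrays. Thalamic markers (8 genes) averaged 12.16 on BTBR replicate 1 and 9.59 to 10.02 on the others. Choroid plexus markers (8 genes) averaged 10.67 to 11.98 in B6 and 10.87 to 12.69 in BTBR, highest on BTBR replicate 1, and red blood cell markers (3 genes tested) 11.37 to 12.13 and 11.57 to 13.48, highest on BTBR replicate 3. The hippocampal list was lowest on the same 3 arrays, at 11.55, 11.29 and 11.98 against 12.32 to 12.57 elsewhere. With the 3 arrays left out, an alternative chosen after these levels were seen, the Ldhb difference was 0.11 and that of Pfkp A_52_P223083 was 0.05, in place of 0.22 and 0.25. The Eno2 differences were 0.18 and 0.21 without them (adjusted p 0.476 and 0.317, limma, 2 BTBR against 3 B6 arrays), and 0 member probes were called. BTBR replicates 1 and 2 held the highest BTBR values of Ldhb and Pfkp A_52_P223083. Leaving them out lowers those BTBR means whatever the reason. The 3 arrays left out are all on slide 1, so slide and these markers cannot be fully told apart. The part of neighboring tissue in the Ldhb and Pfkp values was not tested.

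**Figure D3:**
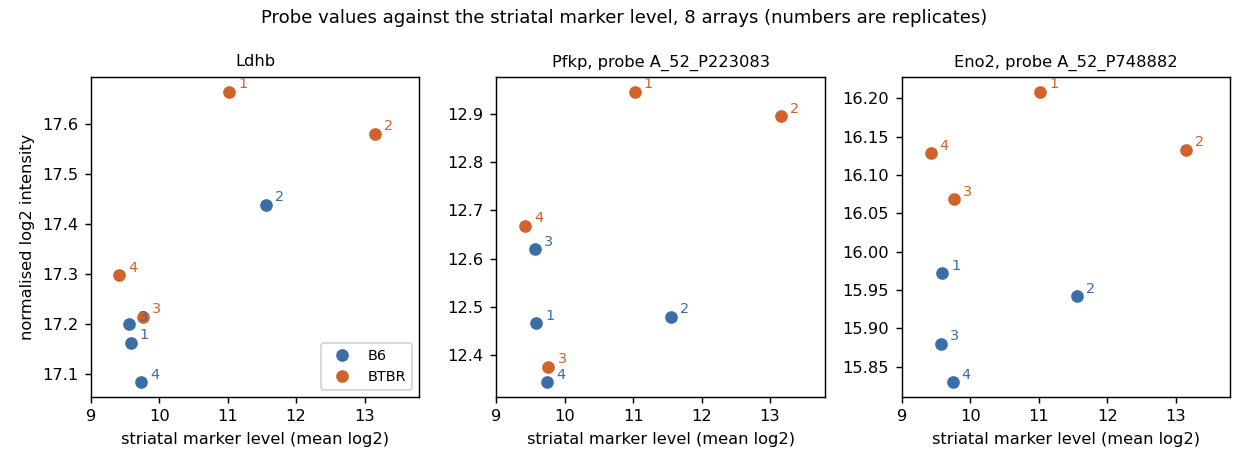
Normalised log2 intensity of Ldhb, of 1 Pfkp probe and of 1 Eno2 probe against the mean level of the striatal markers on the same array, with 1 point per array numbered by replicate (B6 blue, BTBR orange). The 3 arrays with a striatal level above 11 hold the 3 highest Ldhb values, and only 1 of them is a B6 array. In the Eno2 probe shown, every BTBR array lies above every B6 array.

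Some measures other than the strain difference describe the members. Their probes varied less within a strain than those of the array as a whole, with a median SD of 0.11 against 0.13 for all tested probes, and 20 of the 22 were well above background on all 8 arrays. Promoter windows from 250 bases before to 50 bases after a transcript start (RefSeq, GRCm38.p6, 19 windows for the 10 members) were searched on both strands for ACGTG and GCGTG, the core letters bound by hypoxia-inducible factor. A CACGTG box counts on both strands. A match was present in 14 of the 19 windows, and in 43.8% of all 32851 windows of that length. Several windows of Pfkm, Aldoa and Eno1 overlap, so the same matches recur in them, and counted by gene, 8 of the 10 members had a match in any window. A gene with more windows has more chances of a match. The share of all genes with a match was not computed, so the count by gene has no background here. The most, 7, were in an Ldha window (chr7:46845554-46845853), and Gpi1 and Eno2 had none, which says only that these letters are not in those windows.

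Within 1 Mb of the members, 25 of 425 tested probes of other genes were called by limma, or 5.88% against 7.61% of all tested probes. The calls were 0 of 50 neighboring probes for Hk1, 2 of 17 for Gpi1, 5 of 58 for Pfkm, 0 of 3 for Pfkp, 3 of 111 for Aldoa, 3 of 26 for Pgk1, 4 of 35 for Eno1, 2 of 67 for Eno2, 0 of 32 for Ldha and 6 of 26 for Ldhb. The shares thus lay on both sides of that of all probes, with the highest at Ldhb (4 higher and 2 lower in BTBR). The Pgk1 window lies around the chromosome 3 position of its probes.

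The rest of the pathway and its surroundings were read with 8 lists of 98 tested genes. Of these, 7 genes had a called probe, 3 higher and 4 lower in BTBR, and 7 of 157 probes, 4.46%, were called against 7.61% of all tested probes. The remaining steps of the main chain gave values like those of the members. Gapdh differed by 0.01 ± 0.08 and 0.20 ± 0.14 at its 2 probes, Tpi1, triose phosphate isomerase, by 0.06 ± 0.06 and −0.07 ± 0.09, and Pgam1, phosphoglycerate mutase, by 0.07 ± 0.07. Pkm, the pyruvate kinase that ends the chain, differed by −0.00, −0.01 and 0.05 at its 3 probes. None of these 8 probes was called by limma (adjusted p of at least 0.528).

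Among the other glycolysis enzymes (15 genes tested, median −0.04), 2 had a called probe and both fell in BTBR. Hk2, the insulin-responsive hexokinase, read 9.50, 9.48, 9.46 and 9.81 in B6 and 8.69, 8.82, 8.88 and 9.07 in BTBR. Every BTBR array lay below every B6 array, and the difference was −0.70 ± 0.11 (adjusted p = 0.00364, limma). Aldoc, the aldolase of astrocytes, fell at A_51_P425284 from 14.11, 14.30, 14.27 and 14.03 to 13.59, 13.56, 13.36 and 13.76 (−0.61 ± 0.10, adjusted p = 0.00506, limma). Its other probe, A_51_P220681, overlapped between strains at −0.17 ± 0.09 (adjusted p = 0.346, limma), so the 2 Aldoc probes gave different sizes. Astrocyte markers (10 genes) averaged 12.45 to 12.65 in B6 and 12.40 to 12.51 in BTBR, with 1 gene called, lower, and their part was not tested. Without the 3 arrays with high striatal or thalamic markers, the Hk2 and Aldoc A_51_P425284 differences were −0.61 ± 0.13 and −0.58 ± 0.14 and no longer passed (adjusted p 0.0569 and 0.0886, limma). The sizes changed little, and the standard errors were larger with 2 BTBR against 3 B6 arrays. In that fit the called probes of Slc16a1, Slc2a5, Egln3 and Arnt, described below, still passed, and that of Phkb did not.

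Of the glucose and lactate transporters (15 genes tested, median 0.05), 2 had a called probe, in opposite directions. Slc2a5, a fructose transporter that microglia express in brain, read 11.62, 11.49, 11.45 and 11.57 in B6 and 10.49, 10.59, 10.99 and 10.81 in BTBR. The difference was −0.81 ± 0.11 (adjusted p = 0.00186, limma), with no overlap. Microglial markers (10 genes) averaged 11.11 to 11.19 in B6 and 10.97 to 11.26 in BTBR, with 1 gene called higher and 2 lower, and their part was not tested. Slc16a1, which encodes the lactate carrier MCT1, rose at A_51_P397363 from 10.80, 10.81, 10.72 and 10.99 to 11.57, 11.42, 11.75 and 11.63 (0.76 ± 0.09, adjusted p = 0.000794, limma). Its other 2 probes, 1 of them less than a probe length downstream, differed by 0.17 ± 0.11 and 0.16 ± 0.07 and were not called (adjusted p 0.48 and 0.258, limma). Markers of endothelial cells and pericytes, which carry MCT1 at the blood-brain barrier, averaged 10.81 to 11.09 in B6 and 10.97 to 11.19 in BTBR, with 1 of 9 genes called, higher, and their part was not tested. Markers of oligodendrocytes, which also use MCT1, averaged 13.14 to 13.32 in B6 and 12.74 to 13.77 in BTBR, with 0 of 9 genes called by limma.

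The regulators (14 genes tested, median −0.01) held 2 genes with a called probe, Egln3 and Arnt. Of the 28 tested probes of this list, 1 was called higher and 1 lower, where 7.61% of all tested probes were called. Several genes of the list belong to the hypoxia pathway, so these 2 calls do not single it out. Egln3, a prolyl hydroxylase that acts on hypoxia-inducible factor, read 8.61, 8.62, 8.64 and 8.52 in B6 and 9.47, 9.06, 9.12 and 9.06 in BTBR (0.58 ± 0.10, adjusted p = 0.00654, limma). Arnt fell at A_52_P324866, from 9.09, 9.08, 8.97 and 9.15 to 8.52, 8.65, 8.43 and 8.64 (−0.51 ± 0.07, adjusted p = 0.00235, limma), while its other 2 tested probes differed by 0.04 and 0.00. The sizes of both changes depended on the processing, from 0.44 (deposited matrix) to 1.04 (processed signal) for Egln3 and from −0.38 to −0.88 for Arnt A_52_P324866, with the probe called in both settings. Among the glycogen genes (19 tested, median −0.00), 1 of the 3 tested probes of Phkb, a subunit of the kinase that activates glycogen phosphorylase, was higher by 0.24 ± 0.06 (adjusted p = 0.0387, limma), and the call was lost when any 1 array was left out (adjusted p from 0.0577 to 0.119). No gene was called among those of pyruvate entry into mitochondria (13 tested), the pentose phosphate pathway (8), gluconeogenesis (4) or the NADH shuttles (10).

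**Figure D4:**
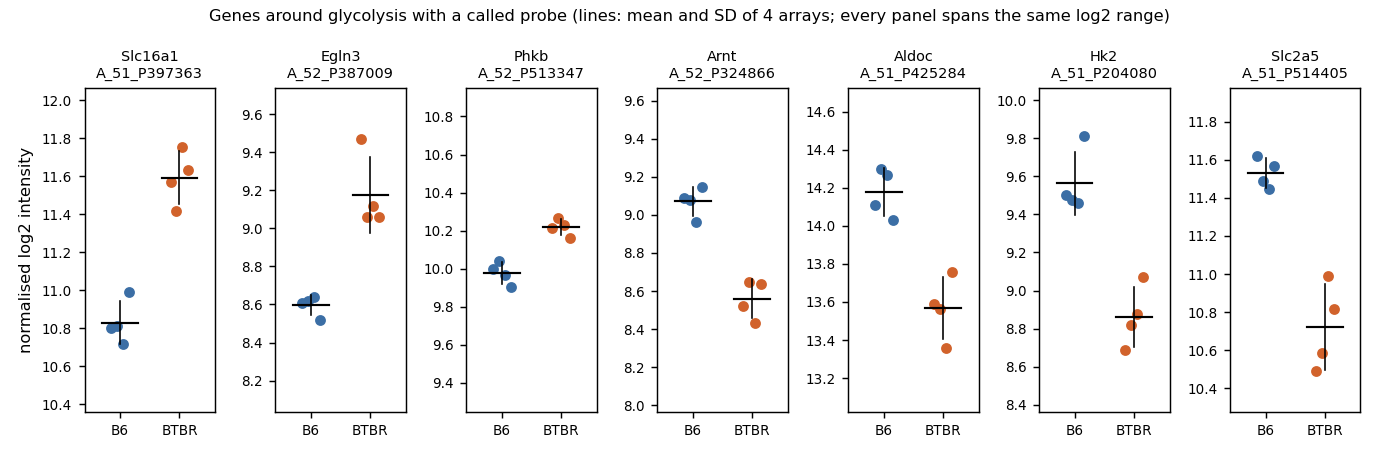
Normalised log2 intensity on each array of the 7 called probes from genes around glycolysis, with the mean and SD of 4 arrays per strain and the same log2 span in every panel. Slc16a1, Egln3 and Phkb lie higher in BTBR, and Arnt, Aldoc, Hk2 and Slc2a5 lower, without overlap between the strains.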

How the data were processed

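Hippocampal RNA of 4 BTBR and 4 B6 mice was read on 8 single-color arrays, grouped by the strain in the labels. The intensity columns (mean spot signal, median local background, flags) are as deposited by the authors and unscaled between arrays, with version 10.7.3.1 of Agilent's extraction software in the headers and 9.1 in the submitters' processing notes. A deposited table of log2 values, for which the authors used Agi4x44PreProcess (background subtraction, quantile normalization, median of replicate spots), served as an alternative.

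From the intensities, background was subtracted (minimum 0.5), 50 added, log2 taken and all spots quantile normalized. Flagged spots were dropped, replicate spots reduced to their median, and 154 probes flagged on any array left out. Testing covered 27982 of 41174 probes, those well above background on 75% or more of a strain's arrays. That share of probes well above background was 56.8% to 71.9% in B6 and 61.6% to 71.5% in BTBR and limits precision together with the number of arrays. limma 3.58.1 (R 4.3.3) fitted strain alone, with Benjamini-Hochberg adjustment over all tested probes and calls at an adjusted p under 0.05. It and the rank product (100 permutations) were tested on simulated data. The planted changes were far larger than the differences of the members, so the simulation does not show that small changes would be found. Isoenzyme pairs were compared with exact permutation tests of within-array log2 ratios of the brightest probe of each gene. Figures were drawn with matplotlib 3.10.9 in Python 3.11.15.

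The members, the 8 pathway lists and the 10 marker lists were written from general knowledge and chosen with earlier results of these data known. All members are named with every probe. From each pathway list the called genes with the smallest p, at most 3, were named, and Gapdh, Tpi1, Pgam1, Aldoc and Pkm in any case. The alternatives were the processed signal, normexp, the deposited matrix, median centring, other filters on dim probes, outlier flags kept, each array left out, replicate or slide as a block, each slide alone, limma with trend and robust options, the rank product, other thresholds and 1 value per gene.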

Additional observations from a re-analysis of the deposited data

Results flagged for a closer look

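In 6 of 92 groups of 4 arrays, 1 array stood farther from the rest than Dixon's 95% critical value for 4 samples allows. Chance gives about 1 in 20. Among the members this was Eno2 A_51_P130028 in B6, where replicate 3 read 16.28 and the others 16.39 to 16.42, with a gap of 0.83 of the range. The low array lies away from BTBR, so the strains did not overlap with or without it. Hk2 had a high B6 replicate 4, at 9.81 against 9.46 to 9.50 (0.88), and Egln3 a high BTBR replicate 1, at 9.47 against 9.06 to 9.12 (0.86). The other 3 were probes that were not called, Aldoc A_51_P220681 with a low B6 replicate 4 (18.03 against 18.13 to 18.14, gap 0.92), Arnt A_52_P577150 with a low BTBR replicate 3 (8.74 against 8.90 to 8.92, gap 0.86) and Slc16a1 A_52_P245119 with a low B6 replicate 2 (8.14 against 8.24 to 8.26, gap 0.84).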

How the results depend on the processing

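No member probe was called under most settings. The exception was Eno2 A_52_P748882, which made the count 1 in the deposited matrix, with limma's trend and robust options, with slide as a block and at a threshold of 0.1. Its difference ran from 0.16 (median centring, adjusted p = 0.273) to 0.25. Leaving out each array in turn gave 0 called member probes every time, a median member difference from −0.03 to 0.08, and 6 to 9 genes called in the pathway lists. The median member difference was −0.03 with median centring, when 13 of 21 probes were lower and the median of all probes was −0.01. It was 0.10 without the 3 arrays with high striatal or thalamic markers, where 15 of 21 were higher. The number of called pathway genes, 7, became 15 within slide 1, 3 within slide 2 and 5 without those 3 arrays, in fits that called 2421, 1036 and 1210 of all probes in place of 2129. The cause was not tested. Leave-one-out ranges of the isoenzyme contrasts were −0.32 to −0.10 for Ldha against Ldhb, −0.37 to −0.14 for Eno1 against Eno2 and −0.08 to 0.06 for Pfkm against Pfkp. In that order they were −0.40, −0.35 and −0.17 within slide 1, −0.01, −0.12 and 0.12 within slide 2, and 0.02, −0.02 and 0.06 without the 3 arrays named above. Those 3 arrays are all on slide 1. An exact test with slide as a block was not run for them. The labels pair the strains only by replicate number, and slides, read from the file headers, are treated above (same-number correlations −0.14 to 0.51, 2 of 4 arrays closest to their own number). With a replicate block 1650 probes were called in place of 2129 and 0 were members, with an adjusted p of 0.111 for Eno2 A_52_P748882. Over all results and alternatives, 989 values stayed on their side of the threshold or near their main value, 20 became weaker, mostly Phkb, 8 stronger and 1 moved, and 0 called results reversed.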
